A study of Mus musculus with 8 samples.

Results

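The genes described here are 34 genes of mitosis, among them cyclins, mitotic kinases, spindle checkpoint and kinetochore proteins, spindle motors and cytokinesis proteins. They were chosen by name, as the probe sets whose deposited gene symbol equals one of the 34, out of 20666 genes with a symbol. All 34 were on the array, with 68 probe sets, and each gene is represented by its probe set of highest mean over the 8 arrays. RNA came from the tibial plateau of the knee, articular cartilage and the bone beneath it dissected together, of mice aged 8 weeks. One group was 4 wild-type C57BL/6 mice and the other 4 mice labelled ANP32A KO, with 1 array per mouse. Neither the strain of the knockout mice nor the deleted part of Anp32a is stated by the labels, which name no further allele or treatment in either group. Values are log2 RMA values (robust multi-array average, which brings all arrays to 1 distribution), given ± SD with n = 4 per group. A difference of 1 on this scale is a factor of 2.

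Mitosis parts the copied chromosomes between daughter cells. Cyclin B with CDK1 starts it, the mitotic kinases build the spindle, kinetochores tie each chromosome to spindle fibres, and the checkpoint holds separase and the anaphase-promoting complex back until every kinetochore is attached. The chromosomal passenger complex and the central spindle proteins then place and carry out cytokinesis. Most of these genes are transcribed only in cycling cells, late in the cycle, through promoters that hold CCAAT boxes and a cell cycle homology region (CHR), the element bound by the DREAM repressor in resting cells and by MuvB with B-MYB and FOXM1 in dividing cells. In the adult knee, dividing cells are found mainly in the marrow of the bone and in the growth plate, while articular chondrocytes and muscle fibres rarely divide. In such bulk tissue a change in the number of dividing cells and a change in RNA per cell cannot be told apart.

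Promoter windows of 300 bases, ending 50 bases after the start of the gene, were given for 28 of the 34 genes by RefSeq on GRCm38.p6. Ccna2, Cdc25c, Aurkb, Kif20a, Incenp and Tpx2 had no entry. Of these, 5 are printed 5′ to 3′ on the strand of the gene: those of Espl1 (chr15:102296043-102296342, plus strand), Bub1b (chr2:118597961-118598260, plus strand) and Prc1 (chr7:80294201-80294500, plus strand), which had the smallest unadjusted p among the 28, that of Kif23 (chr9:61946750-61947049, minus strand), which differed least among the detected genes, and that of Mad2l1 (chr6:66534971-66535270, plus strand), which holds none of the motifs searched. Capitals mark a CHR or a CCAAT box on either strand.
Espl1: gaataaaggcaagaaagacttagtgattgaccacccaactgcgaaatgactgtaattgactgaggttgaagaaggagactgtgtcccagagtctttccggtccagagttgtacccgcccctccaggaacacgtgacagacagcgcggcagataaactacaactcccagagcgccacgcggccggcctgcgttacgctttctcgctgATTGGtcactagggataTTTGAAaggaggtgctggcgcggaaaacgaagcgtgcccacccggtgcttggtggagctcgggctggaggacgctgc
Bub1b: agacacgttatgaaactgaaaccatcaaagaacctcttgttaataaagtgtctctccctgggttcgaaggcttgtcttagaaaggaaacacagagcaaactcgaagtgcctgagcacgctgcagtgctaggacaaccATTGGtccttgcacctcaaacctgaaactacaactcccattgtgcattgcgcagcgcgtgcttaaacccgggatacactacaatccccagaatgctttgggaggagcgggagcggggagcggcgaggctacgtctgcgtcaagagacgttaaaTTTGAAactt
Prc1: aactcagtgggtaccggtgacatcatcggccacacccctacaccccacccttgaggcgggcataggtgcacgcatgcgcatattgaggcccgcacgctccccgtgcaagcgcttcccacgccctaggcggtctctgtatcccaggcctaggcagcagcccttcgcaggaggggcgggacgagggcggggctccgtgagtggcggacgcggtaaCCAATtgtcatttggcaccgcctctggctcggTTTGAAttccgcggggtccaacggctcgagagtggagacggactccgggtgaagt
Kif23: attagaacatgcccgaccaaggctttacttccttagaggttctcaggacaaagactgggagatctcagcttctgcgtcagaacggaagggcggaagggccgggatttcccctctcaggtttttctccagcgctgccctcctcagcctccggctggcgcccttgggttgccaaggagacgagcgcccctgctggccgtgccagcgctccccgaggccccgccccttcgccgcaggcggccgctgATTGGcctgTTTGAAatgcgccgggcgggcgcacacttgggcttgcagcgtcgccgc
Mad2l1: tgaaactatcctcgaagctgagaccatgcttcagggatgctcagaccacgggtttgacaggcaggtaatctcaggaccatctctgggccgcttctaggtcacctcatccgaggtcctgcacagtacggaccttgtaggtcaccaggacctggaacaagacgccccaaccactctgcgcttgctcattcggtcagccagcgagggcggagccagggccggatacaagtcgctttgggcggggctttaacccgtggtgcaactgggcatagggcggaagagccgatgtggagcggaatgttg

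The CHR was searched as TTTGAA or TTTAAA, the CCAAT box as CCAAT, and the E2F site as TTCCCGC or as TTCGCGC or as TTGCCGC or as TTGGCGC, each on both strands. A CHR match stood in 24 of the 28 windows (85.7%), against 27.8% of the windows of 27025 genes, 1 window per gene. A CCAAT box stood in 22 (78.6%, against 37.9%), both together in 20 (71.4%, against 10.9%), and an E2F site in 4 (14.3%, against 9.7%). Motifs of different kinds overlapped in 3 of the 28 windows and in 0.7% of all. The start of 22 of the 28 windows' genes had a CHR beginning within 50 bases on either side (78.6%, against 8.2%). Espl1 has a CCAAT box beginning at base -44 and a CHR beginning at base -27, counted from the start, and Prc1 has them at -37 and -5. Kif23 holds both as well, a CCAAT box at -7 and a CHR at 3, while Nuf2 and Mad2l1 hold no match of any kind. A match is a run of letters and not a shown binding site.

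**Figure D1:**
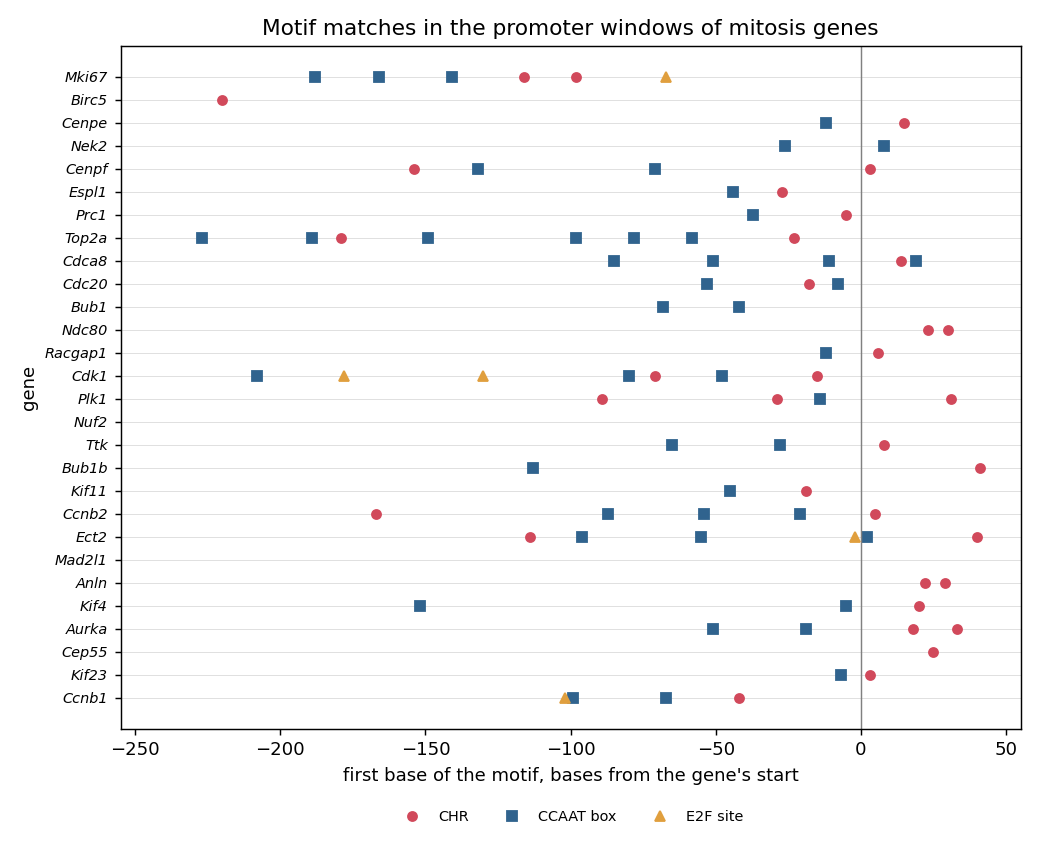
First base of each CHR, CCAAT box and E2F match, in bases from the start of the gene (x axis), for the 28 mitosis genes with a promoter window (y axis, largest fold change on top). CHR matches lie close to the start in 22 of the 28 genes, Kif23 included, and CCAAT boxes mostly before it.

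The targeted gene checks the labels. The probe set of Anp32a that was lost read 9.88 ± 0.08 in wild type and 4.98, 4.05, 4.33 and 5.04 on knockout arrays 1 to 4, where it was called absent each time. The other 2 probe sets of Anp32a stayed present on all 8 arrays and read 0.51 and 0.45 lower (adjusted p of limma 0.0555 and 0.0641). In all 3 probe sets every knockout array, knockout 4 included, lay below every wild type. The share of probe sets called present ran from 57.6% to 60.1% over the arrays. Markers of cartilage were called present on all 8 arrays for 15 of 15 measured genes, with Col2a1, the main cartilage collagen, at 14.9 in both groups.

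All 34 mitosis genes read higher in the knockout on average, by a median of 0.52 on the log2 scale (1.44-fold), against a median of 0.013 over all genes. None passed limma with Benjamini-Hochberg adjustment over all 20666 genes (0 of 34, with adjusted p from 0.160 to 0.825), where 0.0532% of all genes passed. At an unadjusted limma p under 0.05, 26 of the 34 were higher and 0 lower, against 10.1% and 9.26% of all genes. The groups did not overlap for 2 of the 34, Espl1 and Cdc25c, against 4.61% of all genes, and 0 lay lower without overlap, against 5.42%. The standard error of the differences had a median of 0.19 and the arrays of 1 genotype spanned a median of 0.68 in wild type and 0.70 in knockout, more than the difference between the genotypes. The probe set of 1 gene, Ccnb1, was called absent on all 8 arrays, so the statements below on detected genes cover the other 33, of which 31 were called present on every array.

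The order of the arrays was shared across the 33 genes. Wild type 3 was the lowest of the 8 arrays for 30 of them and knockout 3 the highest for 29. Wild type 1 was the highest wild-type array for 30 genes and knockout 4 the lowest knockout array for all 33. Relative to each gene's mean over 8 arrays, the median of the 33 genes was 0.065, -0.093, -0.65 and -0.38 on wild types 1 to 4 and 0.37, 0.35, 0.52 and -0.23 on knockouts 1 to 4. Knockout 4 thus lay between wild type 4 and wild type 2, inside the wild-type range for 30 of the 33 genes, and above wild type 1 for 2. Knockouts 1, 2 and 3 all lay above every wild type for 30 of the 33 genes, against 13.3% of all genes. Without knockout 4 the median log2 fold change was 0.67, and 19 of the 34 genes passed limma adjusted over all genes, all higher, where 4.57% of all genes passed on the higher side and 4.07% on the lower. Cenpe, Cenpf, Espl1, Prc1 and Mki67 had the smallest adjusted p in that fit (0.0285, 0.0305, 0.032, 0.032 and 0.033). Leaving out any other single array gave 0 calls among the 34. As knockout 4 was the lowest knockout for all 33 genes, leaving it out raises their difference by itself. The calls without it are therefore no separate support.

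**Figure D2:**
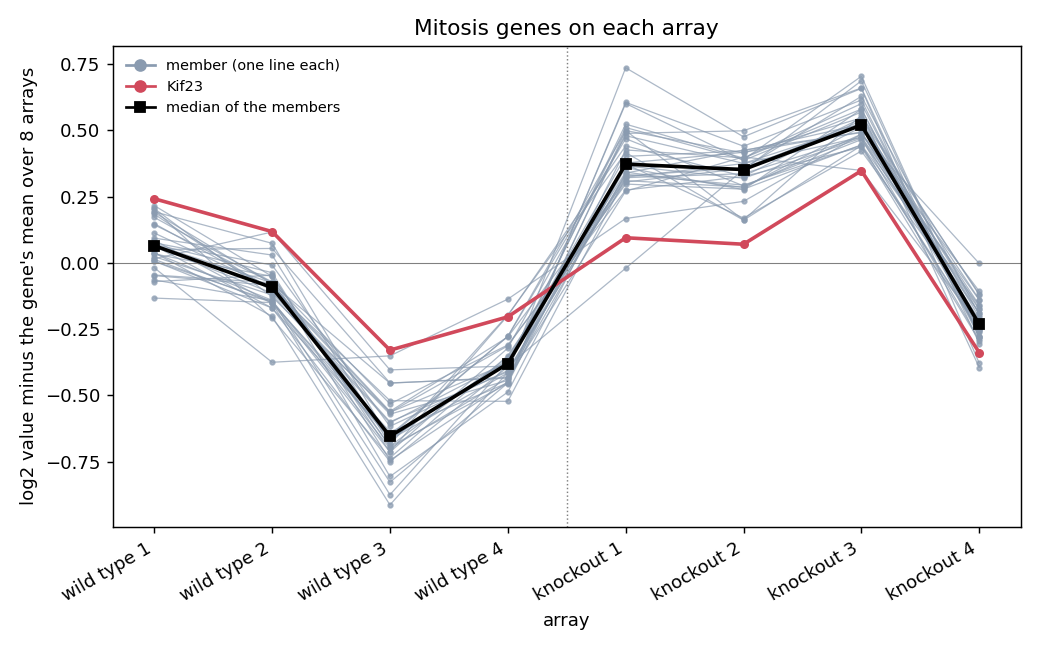
Log2 value minus the gene's mean over 8 arrays (y axis) for the 33 detected mitosis genes on each array (x axis), 1 line per gene, with Kif23 in red and the median in black. The lines run in parallel, lowest on wild type 3, highest on knockout 3 and with knockout 4 among the wild types, while Kif23 lies at the upper edge on the wild types and at the lower edge on the knockouts.

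The proliferation marker Mki67, which coats mitotic chromosomes, read 12.23, 11.99, 11.28 and 11.78 on wild types 1 to 4 and 12.93, 12.67, 12.85 and 11.81 on knockouts 1 to 4. Its knockouts 1 to 3 lay above all wild types and knockout 4 lay inside their range, and its log2 fold change of 0.75 ± 0.27 (SE) was the largest of the 34 (limma adjusted p = 0.190). Top2a, the topoisomerase that untangles copied chromosomes, read 10.85, 10.76, 10.12 and 10.36 in wild type and 11.24, 11.21, 11.42 and 10.56 in knockout. The same 3 knockout arrays were high, with a log2 fold change of 0.58 ± 0.21 (SE, limma adjusted p = 0.191).

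Of the genes that drive entry into mitosis, Cdc25c, the phosphatase that activates CDK1, had the smallest p of the 34. It read 6.91, 6.56, 6.58 and 6.80 in wild type and 7.10, 7.16, 7.42 and 6.93 in knockout. Every knockout array lay above every wild type, though knockout 4 by only a small margin over wild type 1, and the log2 fold change was 0.44 ± 0.12 (SE, limma adjusted p = 0.160). This probe set was called present on 7 of 8 arrays. The second probe set of Cdc25c, called absent on all 8, gave 0.25 with overlapping groups (limma adjusted p over all probe sets = 0.494). Cdk1 itself read 10.24, 10.06, 9.61 and 9.73 in wild type and 10.51, 10.60, 10.67 and 9.99 in knockout. Here knockout 4 lay below wild types 1 and 2, and the log2 fold change was 0.53 ± 0.18 (SE, limma adjusted p = 0.178). Its S and G2 phase cyclin Ccna2 read 0.62 higher and the B-type cyclin Ccnb2 0.47 higher (limma adjusted p = 0.182 and 0.257). The other B-type cyclin, Ccnb1, read 4.83, 4.59, 4.61 and 4.73 in wild type and 4.69, 4.81, 4.70 and 4.77 in knockout from its only probe set. These calls are absent on every array, so the array gives no measured level for Ccnb1 and no fold is given.

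Among the mitotic kinases, Plk1, which acts from mitotic entry to cytokinesis, read 8.95, 8.92, 8.35 and 8.72 in wild type and 9.47, 9.29, 9.47 and 8.82 in knockout. Knockout 4 again lay inside the wild-type range, and the log2 fold change was 0.52 ± 0.17 (SE, limma adjusted p = 0.176). Nek2, a kinase of centrosome separation, read 8.84, 8.60, 7.88 and 8.37 in wild type and 9.26, 9.14, 9.46 and 8.47 in knockout, 0.66 higher (limma adjusted p = 0.194). Aurka, the kinase of spindle poles, read 9.27, 9.20, 8.49 and 8.98 in wild type and 9.59, 9.33, 9.62 and 8.91 in knockout. Its knockout 4 lay below 3 of the wild types, and its difference of 0.38 had a 95% interval from -0.067 to 0.83 (limma adjusted p = 0.327). Tpx2, which activates Aurka on spindle fibres, gave 9.46, 9.22, 8.76 and 8.98 in wild type and 9.56, 9.61, 9.72 and 8.99 in knockout. This difference of 0.37 had an interval from -0.046 to 0.79 (limma adjusted p = 0.307).

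The spindle checkpoint genes read between 0.43 and 0.56 higher. Bub1b, the checkpoint protein BUBR1, read 8.91, 8.88, 8.40 and 8.68 in wild type and 9.27, 9.25, 9.45 and 8.85 in knockout (0.49 ± 0.15 SE, limma adjusted p = 0.167). Ttk, the kinase that starts checkpoint signalling, read 8.07, 7.82, 7.40 and 7.40 in wild type and 8.24, 8.26, 8.39 and 7.78 in knockout (0.50, limma adjusted p = 0.190). Bub1, a kinase that recruits the other checkpoint proteins, read 9.10, 8.83, 8.07 and 8.39 in wild type and 9.25, 9.23, 9.57 and 8.60 in knockout. For all 3 genes knockouts 1 to 3 were above each wild type and knockout 4 was not, and the difference for Bub1 was 0.56 with the widest spread of the 4 (limma adjusted p = 0.254). Mad2l1, which binds and blocks Cdc20, read 0.43 higher (limma adjusted p = 0.206).

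The 2 genes of anaphase onset read 0.60 and 0.58 higher. Espl1, separase, the protease that cuts cohesin, read 8.72, 8.70, 8.14 and 8.65 in wild type and 9.29, 9.18, 9.40 and 8.73 in knockout. Its groups did not overlap, with knockout 4 just above wild type 1, and the log2 fold change was 0.60 ± 0.17 (SE, limma adjusted p = 0.160). Cdc20, the activator of the anaphase-promoting complex, read 10.94, 10.97, 10.30 and 10.69 in wild type and 11.49, 11.39, 11.53 and 10.79 in knockout. Its knockout 4 lay inside the wild-type range, and the difference was 0.58 (limma adjusted p = 0.178). The probe sets that stand for Cdc20, Aurkb and Cdc25c have names ending in x_at, which in the maker's naming marks probes that can also match other transcripts.

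The kinetochore genes read between 0.52 and 0.67 higher. Cenpe, the kinesin that moves chromosomes to the spindle equator, read 9.35, 9.28, 8.72 and 8.98 in wild type and 9.91, 9.92, 10.08 and 9.11 in knockout. Cenpf, a large protein of the outer kinetochore, read 9.77, 9.61, 9.12 and 9.30 in wild type and 10.25, 10.17, 10.30 and 9.52 in knockout. Both had knockouts 1 to 3 well above the wild types, with log2 fold changes of 0.67 and 0.61 (limma adjusted p = 0.173 and 0.172). Ndc80, which binds spindle fibres directly, read 7.76, 7.35, 6.82 and 7.21 in wild type and 7.86, 7.92, 8.19 and 7.36 in knockout (0.55, limma adjusted p = 0.209). Its partner Nuf2, whose promoter window held no motif match, read 0.52 higher (limma adjusted p = 0.200).

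In the chromosomal passenger complex, Birc5, survivin, read 10.65, 10.47, 9.78 and 10.15 in wild type and 11.21, 11.05, 11.22 and 10.33 in knockout. Incenp, its scaffold, read 8.97, 8.79, 8.31 and 8.69 in wild type and 9.46, 9.13, 9.52 and 8.84 in knockout. Cdca8, borealin, read 10.30, 10.20, 9.49 and 9.78 in wild type and 10.83, 10.62, 10.80 and 9.84 in knockout. In all 3 genes wild type 3 was lowest and knockouts 1 and 3 were the highest arrays, and their log2 fold changes were 0.69, 0.55 and 0.58 (limma adjusted p = 0.179, 0.173 and 0.237). Aurkb, the kinase of the complex, read 0.49 higher (limma adjusted p = 0.210).

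Among spindle motors, Kif11, the kinesin that pushes spindle poles apart, read 9.16, 9.08, 8.47 and 8.68 in wild type and 9.41, 9.46, 9.56 and 8.87 in knockout (0.48, limma adjusted p = 0.210). The chromosome-bound kinesin Kif4, an X-linked gene, read 8.92, 8.65, 8.27 and 8.29 in wild type and 9.10, 8.89, 9.15 and 8.54 in knockout. Its knockout 2 lay just below wild type 1, and its difference of 0.39 had an interval from -0.0034 to 0.78 (limma adjusted p = 0.261).

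The 7 genes of the central spindle and cytokinesis read from 0.087 to 0.59 higher. Prc1, which bundles the fibres of the central spindle, read 9.74, 9.59, 9.07 and 9.36 in wild type and 10.13, 10.15, 10.26 and 9.56 in knockout (0.59 ± 0.18 SE, limma adjusted p = 0.169). Racgap1, a subunit of the centralspindlin complex, read 8.87, 8.72, 8.24 and 8.47 in wild type and 9.17, 9.20, 9.37 and 8.70 in knockout (0.54 ± 0.17 SE, limma adjusted p = 0.170). For both, knockout 4 lay inside the wild-type range and the other knockouts above it. Ect2, the exchange factor that centralspindlin recruits, read 0.43 higher, the kinesin Kif20a 0.41, the cleavage furrow protein Anln 0.39 and the abscission protein Cep55 0.33 (limma adjusted p = 0.269, 0.323, 0.251 and 0.349).

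Kif23, the motor subunit of centralspindlin and the direct partner of Racgap1, differed least among the 33 detected genes. It read 9.27, 9.15, 8.70 and 8.83 in wild type and 9.13, 9.10, 9.38 and 8.69 in knockout. The groups overlapped, with knockouts 1 and 2 below wild types 1 and 2, and the log2 fold change was 0.087 with an interval from -0.28 to 0.46 (limma adjusted p = 0.825). A second probe set of Kif23, present on all arrays, gave 0.073 and another, present on 2 of 8 arrays, gave -0.20 (limma adjusted p over all probe sets = 0.903 and 0.255). Kif23 is a neighbour of Anp32a on chromosome 9, with 3 protein-coding genes (Paqr5, Glce and Spesp1) between them in the GRCm38.p6 annotation. The other mitosis genes of this set on chromosome 9 lie farther off. Ccnb2 has 79 protein-coding genes between it and Anp32a, Ttk 166 and Anln 438. Zwilch, a kinetochore gene outside this set and named below, lies nearer to Anp32a than these. Its gap is 1.76 megabases (Mb), against 0.395 Mb for Kif23 and 8.03 Mb for Ccnb2. Zwilch read 0.63 higher in the knockout (limma adjusted p = 0.169), unlike Kif23.

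Set against the other 32 detected genes on the same array, Kif23 stood at -0.17, -0.13, -0.032 and -0.18 on wild types 1 to 4 and at -0.64, -0.62, -0.53 and -0.47 on knockouts 1 to 4. In this relative value, which is the log2 value of the gene minus the mean of the others, all 4 knockouts lay below all 4 wild types, knockout 4 included, by 0.44 on average. The SD within a genotype was 0.067 in wild type and 0.082 in knockout, smaller than for the plain values. The shift ran from -0.18 for Cep55 to 0.24 for Mki67 among the genes other than Kif23. Among these, all knockouts of Tpx2 also lay below all its wild types (shift -0.14), and those of Prc1 lay above all its wild types (0.081). These shifts were not tested, and Kif23 was singled out with its small difference known. Whether the place on the chromosome has a part in its value was not tested.

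**Figure D3:**
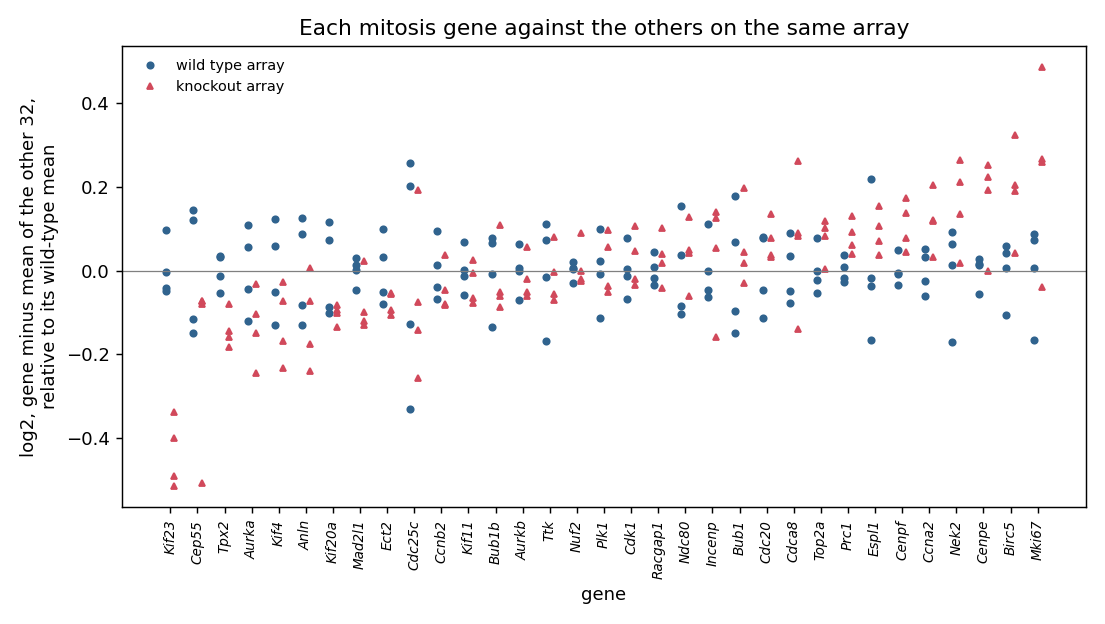
Log2 value of each of the 33 detected mitosis genes minus the mean of the other 32 on the same array, relative to its wild-type mean (y axis), by gene (x axis), with wild-type arrays as circles and knockout arrays as triangles. The 4 knockout arrays of Kif23 lie below its wild types by 0.44 on average. Knockout 1 of Cep55 lies as low. The knockout arrays of Tpx2 lie below its wild types too (shift -0.14), and those of Prc1 lie above its wild types (0.081).

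**Figure D4:**
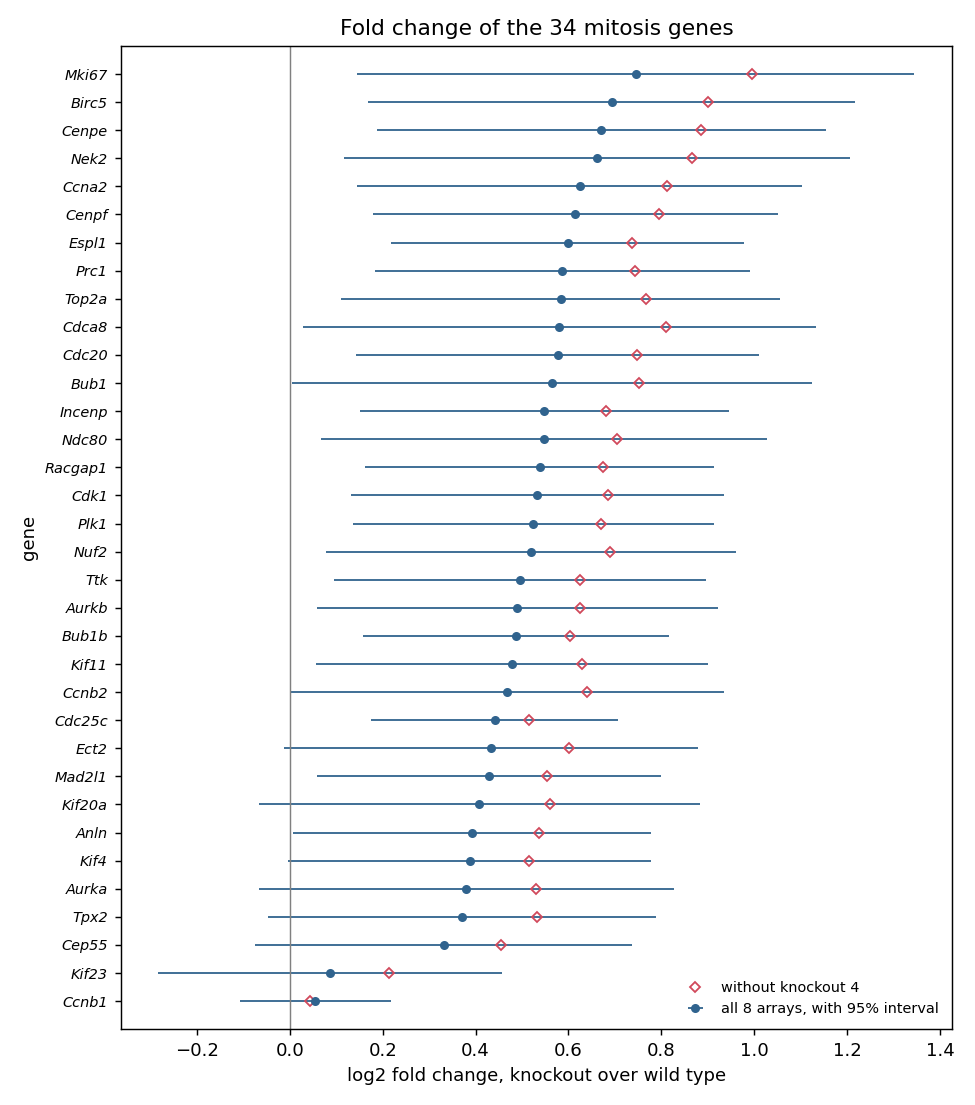
Log2 fold change, knockout over wild type (x axis), of the 34 mitosis genes (y axis) with the 95% interval from limma, not adjusted for the number of genes, and the value without knockout 4 as open diamonds. All 34 points lie above 0, Kif23 and the undetected Ccnb1 closest to it, and Mki67 is highest at 0.75.

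Most of the 34 genes had several probe sets. Of the 68 probe sets, 47 were present on all 8 arrays, and all 47 read higher in the knockout, from 0.073 for Kif23 to 0.78 for the second of Cenpe, with a median of 0.52. An unadjusted limma p under 0.05 was reached on the higher side by 49 of the 68, against 9.53% of all probe sets, and on the lower side by 1, the Kif23 probe set at -0.20, against 8.74%. None of the 68 passed the adjusted threshold of limma (0 calls, lowest adjusted p of limma = 0.139), which 0.0533% of all probe sets passed. Without knockout 4, 30 of the 68 passed on the higher side, against 4.01% of all probe sets. The 10 probe sets present on some arrays ran from -0.20 for Kif23 to 0.55 for Ndc80. Among them were a Cenpf probe set at 0.089 and a Tpx2 probe set at 0.094, below the 0.61 and 0.37 of the probe sets that stand for these genes. The 11 probe sets called absent on all arrays had a median of 0.080, from -0.066 to 0.26. For the 14 genes with 2 or 3 probe sets present on all 8 arrays, those of 1 gene differed by 0.014 (Kif23) to 0.20 (Cdc20).

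The rest of the mitotic machinery was described with 8 further lists of 122 entries, 121 of them on the array. Of the 121, 5 were called absent on all 8 arrays. In these, 65 genes had an unadjusted limma p under 0.05 on the higher side and 1 on the lower, against 10.1% and 9.26% of all genes. None passed the adjusted threshold, which 0.0532% of all genes passed, and the median log2 fold change was 0.26. All 8 condensin genes, which fold chromosomes for mitosis, were among the 65 (median 0.54), with Ncapd2 at 0.67, Ncapg2 at 0.64 and Ncaph at 0.51. Of 28 other centromere and kinetochore genes 19 were, with Zwilch at 0.63, Cenpt at 0.30 and Ska3 at 0.53. Of 18 other motors and spindle proteins 14 were, with Kif22 at 0.56, Tacc3 at 0.53 and Spag5 at 0.80. Of 12 switches of mitotic entry 9 were, with the phosphatase Cdc25b at 0.77, the kinase Mastl at 0.23 and the PLK1 activator Bora at 0.42. Pkmyt1, called absent on all 8 arrays, was among the 9.

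The medians of the other 4 lists were smaller, and the counts of the anaphase-promoting complex and of DREAM and MuvB lay near the shares of all genes (10.1% higher and 9.26% lower). Of 15 cohesin genes 7 had an unadjusted limma p under 0.05 on the higher side (median 0.18), among them Cdca5, sororin, at 0.65, Pds5a at 0.30 and the acetyltransferase Esco2 at 0.66. Of 19 anaphase-promoting complex genes 3 were higher and 1 lower (median 0.052), with the subunits Anapc16 at -0.25 and Anapc15 at 0.16 and the ubiquitin-conjugating enzyme Ube2c at 0.59. Of 11 DREAM and MuvB genes 2 were higher (median 0.13), the histone chaperone Rbbp4 at 0.30 and the pocket protein Rbl1 at 0.43, while Lin9 gave 0.36 without reaching it. Among 10 genes that restrain the cycle 3 were higher (median 0.22), the antiproliferative genes Btg1 at 0.28 and Btg2 at 0.50 and the CDK4 and CDK6 inhibitor Cdkn2c at 0.27. Over the 121 genes of all 8 lists, 7 lay higher and 1 lower without overlap of the groups, against 4.61% and 5.42% of all genes. Btg1 and Cdkn2c were among the 7.

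Among markers of the marrow, the erythroid and megakaryocyte lists came closest to the array order of the mitosis genes. The 17 erythroid genes had medians, relative to each gene's mean, of 0.23, -0.31, -1.23 and -0.38 on wild types 1 to 4 and 0.96, 0.43, 0.66 and -0.45 on knockouts 1 to 4, with wild type 3 lowest and knockout 4 next. Their summed linear level ran from 18000 to 35500 in wild type and from 24400 to 51900 in knockout. The brightest of them, the transferrin receptor gene Tfrc, the band 3 gene Slc4a1 and Hemgn, read 0.18, 0.82 and 0.79 higher. Of the 17, 8 were higher and 2 lower at an unadjusted limma p under 0.05, against 10.1% and 9.26% of all genes. The lower ones were the membrane skeleton genes Ank1 at -0.34 and Sptb at -0.60. B cell precursor genes summed to 4500 to 5620 in wild type and 5940 to 10800 in knockout, without overlap, with Ebf1 at 0.020, Blnk at 0.59 and Cd79b at 0.68, and 1 of the 14 measured was absent on all arrays. Of the 14 B cell genes 8 were higher and 0 lower at an unadjusted limma p under 0.05, against 10.1% and 9.26% of all genes. In 5 of them every knockout lay above every wild type, against 4.61% of all genes. On this list knockout 4 lay above all wild types (median -0.0043, against -0.11 on wild type 1, the highest of them), unlike for the mitosis genes. Granulocyte precursor genes summed to 57900 to 83500 and 68200 to 106000, with Camp at 0.30, Ngp at 0.20 and Mmp9 at 0.40, and here wild type 4 was lowest and knockout 1 lay below wild types 1 and 2. Of these 12 genes 1 was higher and 0 lower at an unadjusted limma p under 0.05, against the same shares of all genes. The megakaryocyte genes Ppbp, Pf4 and Itga2b read 0.15, 0.17 and 0.49 higher on sums of 6990 to 14800 and 7180 to 15500. Over the 10 megakaryocyte genes the medians were 0.36, 0.028, -0.77 and -0.043 on wild types 1 to 4. On knockouts 1 to 4 they were 0.42, 0.21, 0.44 and -0.59, with wild type 3 lowest and knockout 4 next. At an unadjusted limma p under 0.05, 0 of the 10 were higher and 0 lower, against 10.1% and 9.26% of all genes.

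Markers of the other tissues in the piece gave other orders. Skeletal muscle genes summed to 339000 to 372000 in wild type and 161000 to 334000 in knockout, lowest on knockouts 2 and 3, with Tnnc2, Myl1 and Acta1 at -0.35, -0.35 and -0.41. The median of the 16 muscle genes was -0.61. Of the 16, 0 were higher and 15 lower at an unadjusted limma p under 0.05, against 10.1% and 9.26% of all genes. In 7 of them every knockout lay below every wild type, against 5.42% of all genes. Cartilage genes summed to 162000 to 201000 and 162000 to 215000, with Col2a1, Prg4 and Col9a1 at -0.0052, 0.027 and 0.034. Of the 15 cartilage genes 1 was higher and 0 lower at an unadjusted limma p under 0.05, against the same shares of all genes. Osteoblast and osteocyte genes summed to 80300 to 82700 and 85200 to 96400 and osteoclast genes to 37000 to 42600 and 43500 to 59600, both without overlap, with Col1a2, Ibsp and Col1a1 at 0.047, -0.0072 and 0.19 and Acp5, Ctsk and Mmp9 (a gene of the granulocyte list too) at 0.31, 0.37 and 0.40. At an unadjusted limma p under 0.05, 5 of the 10 osteoblast and osteocyte genes were higher and 0 lower, against 10.1% and 9.26% of all genes. In 4 of the 10 every knockout lay above every wild type, against 4.61% of all genes. The osteocyte genes Dmp1, Phex and Sost stood at 0.65, 0.71 and 0.68. Mepe, also an osteocyte gene, gave 0.13 with overlapping groups (limma adjusted p = 0.665), and Alpl gave -0.099. Of the 11 osteoclast genes 8 were higher and 1 lower at an unadjusted limma p under 0.05, against 10.1% and 9.26% of all genes. The lower one was the osteoclast transcription factor gene Nfatc1 at -0.19, lower in every knockout than in every wild type. On this list 5 genes lay higher and 1 lower without overlap, against 4.61% and 5.42% of all genes. Apart from that 1 B cell gene, every measured marker of these 8 lists was called present or marginal on at least 1 array. With the erythroid list's mean per array as a covariate, the median log2 fold change of the 34 mitosis genes was 0.16, and with the skeletal muscle list's mean it was 0.26, with 0 of 34 called in both fits. Both covariates were chosen after the values were seen, and the erythroid array order was among those closest to that of the mitosis genes. These fits therefore test no cause, and the other marrow lists were not fitted. How much of the difference comes with the makeup of the dissected piece was not tested.

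**Figure D5:**
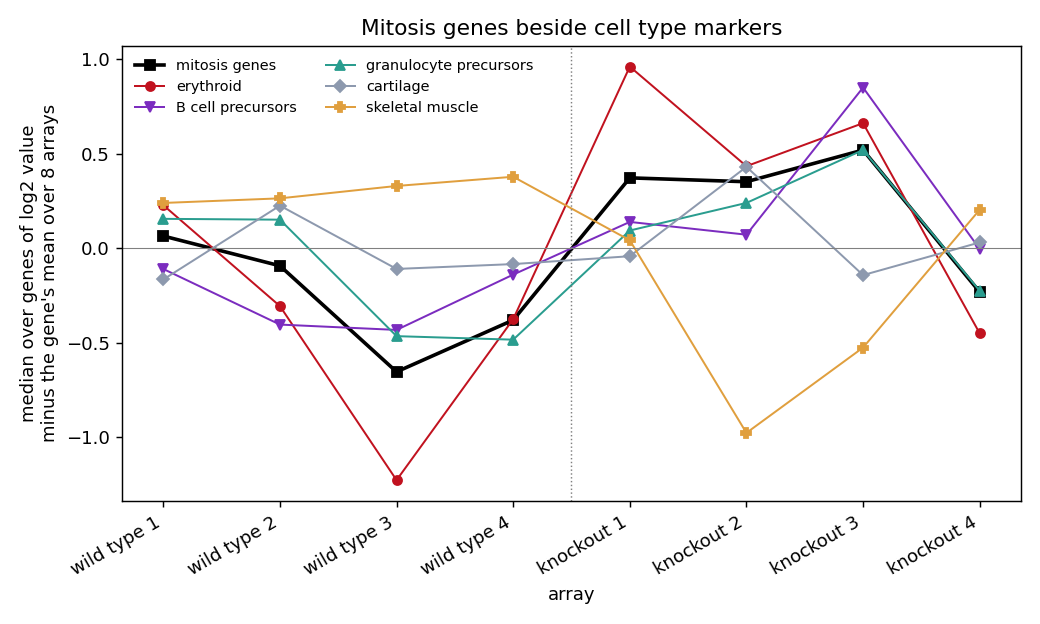
Median over genes of the log2 value minus the gene's mean over 8 arrays (y axis) on each array (x axis) for the 33 detected mitosis genes and 5 marker lists. The mitosis and erythroid lines are both lowest on wild type 3 and low on knockout 4, and the muscle line is lowest on knockouts 2 and 3.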

How the data were processed

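RNA of 8 samples was measured on 1 array each, per the labels. The deposited values are log2 values per probe set made by the authors with RMA, per the submitters' processing notes, and 2 deposited tables hold the same values for 45037 probe sets. The labels and files used here name no array design, software version or genome build. The deposited p-value and log2 fold change columns of the authors were recomputed by limma over all probe sets, with a gap in log10 p of at most 0.00114. The fit over genes, with fewer features, gives other p-values than that table. Of the probe sets, 6889 have no symbol and 63 a date or number in its place, and 64 rows without identifier were left out. Detection calls are the authors'.

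The probe set of highest mean stood for each of 20666 genes. Knockout was compared with wild type by limma 3.58.1 in R 4.3.3 (two-sided, Benjamini-Hochberg, threshold 0.05), unpaired. The fit was tested on simulated data. The number of arrays and the spread between them limit the precision. The p-values set the difference between the genotypes against the spread of these samples within a genotype. Nothing says how the mice were housed or bred, so whether they are independent of each other is not known. Because RMA gives every array 1 distribution, a shift of most genes together would not show. The members and lists were chosen with earlier results of these data known. Named are all 34 genes, in full the 2 of smallest and the 1 of largest p in each role, Kif23, the 3 genes of smallest p of each pathway list and the 3 brightest of each marker list. Further marker genes, Pkmyt1 and probe sets named singly were chosen after their values were seen. Alternatives were a replicate block, each array left out, mean of probe sets, a filter on absent probe sets, quantile normalization, trend with robust variance and array weights. Covariates, and leaving out 2 arrays together, were chosen after seeing the data.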

Additional observations from a re-analysis of the deposited data

Results flagged for a closer look

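In 3 of the 66 groups of 4 arrays formed by the 33 detected genes, 1 array stood apart from the other 3 by more of the whole range than Dixon's critical value allows, where chance gives about 1 group in 20. They were Espl1 in wild type, where wild type 3 lay low (gap 0.886 of the range), and Nuf2 and Cenpf in knockout, where knockout 4 lay low (gaps 0.842 and 0.83). The genes share their arrays, so the flags are not independent.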

How the results depend on the processing

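The count of called genes was 0 of 34 in every fit that kept knockout 4, and leaving out single arrays gave 0 to 19 calls among the genes and 0 to 30 among their 68 probe sets, where 19 and 30 are the values without knockout 4. Over those 8 fits the median log2 fold change ran from 0.39 (without wild type 3) to 0.67 (without knockout 4). The count of genes with groups that did not overlap ran from 2 to 30 over the same fits. The 30 came without knockout 4, where 13.3% of all genes lay higher without overlap. Leaving out an array makes such separation easier for every gene, so these counts do not compare with the 4.61% of all 8 arrays. The median moved to 0.34 without knockouts 2 and 3, to 0.16 with the erythroid covariate and to 0.26 with the muscle covariate. The numbers 1 to 4 of the titles did not pair the arrays by the rule used (r = 0.0652, 0.511, -0.339 and 0.303 for numbers 1 to 4, where wild types 2 and 4 matched the knockout of their own number best), and the replicate block gave 0 calls among genes (lowest limma adjusted p = 0.152) and probe sets. Kif23 turned below 0 with the mean of its probe sets (-0.015), without knockouts 2 and 3 (-0.079) and with the erythroid (-0.20) and muscle (-0.13) covariates, and ran from -0.015 to 0.21 over single arrays left out. Aurka turned to -0.018 with the erythroid and Cep55 to -0.026 with the muscle covariate. No other direction turned, and the causes were not tested.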
